A study of Mus musculus with 165 samples.

Results

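Glycolysis splits glucose into pyruvate in the cytosol and yields ATP without oxygen, and lactate dehydrogenase then turns pyruvate into lactate so that the pathway can go on. The transcripts of 10 enzymes of this pathway, Hk2, Gpi1, Pfkl, Pfkp, Aldoa, Tpi1, Pgk1, Pgam1, Eno1 and Ldha, were followed here through the differentiation of PUER cells. The members were chosen by their gene symbols, and all 10 were found among the 36255 genes of the deposited table and passed the filter on low values. PUER is a mouse myeloid progenitor line, from bone marrow by its labels and from fetal liver in the introduction of the study, that lacks both endogenous copies of the gene for PU.1 (Spi1-/-). It carries instead a PU.1 joined to the part of the estrogen receptor that binds ligand, and 4-hydroxy-tamoxifen (OHT) switches this fusion on. Cells kept in interleukin-3 (IL3) and given 200 nM OHT differentiate toward macrophages. Cells moved to granulocyte colony-stimulating factor (GCSF) for 48 h and then given 100 nM OHT differentiate toward neutrophils. The cytokine, the dose of OHT and the pre-treatment differ together between the courses and cannot be told apart.

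Undifferentiated cells in IL3 without OHT (IL3 0h, 3 libraries) are the start of both courses, and cells after 48 h of GCSF without OHT (GCSF 0h, 3 libraries) are the start of OHT treatment in GCSF. The titles of these 3 GCSF libraries name OHT, while their treatment label and description place them before it, and they were used as cells before OHT. From 1h to 168h after OHT, 27 time points were sequenced in IL3 (81 libraries) and in GCSF (78 libraries), with 3 libraries per time point except GCSF-OHT 96h, 112h and 152h, which had 2. All libraries come from the same line, and each time point was grown in a plate of its own, so p-values measure the spread between wells of a plate. No libraries without OHT were taken after 0h, so OHT, time in culture and plate cannot be told apart in changes from 0h. Part of the medium was replaced and OHT was added again at 40h, 88h and 136h. IL3-OHT 96h and 144h were excluded by the authors and were used here only where they are named. Reads on genes ran from 14600246 to 33147945 per library. Spi1 was read in every library. Of the progenitor markers, Kit and Sox4 had more than 3 reads in every library. Cd34 reached at most 6 reads and Flt3 at most 65, with 3 or fewer in 47 libraries. Of the macrophage-lineage markers, Itgam (up to 8741 reads) and Ccr2 (up to 4556) had more than 3 reads in every library. Csf1r reached at most 77 reads, Mmp12 202 and Adgre1 646, each with 3 or fewer in some libraries. The listed neutrophil markers, Mpo among them, had more than 3 reads in every library except Ltf (up to 275 reads). Hbb-bt, a defining marker of erythroid cells, Cd3e, of T cells, and Cpa3 and Fcer1a, of mast cells, had at most 3 reads in any library. Of the same lists, Mcpt8 of basophils (up to 378 reads) and the erythroid factor Klf1 (up to 60 reads) had more than 3 reads in every library. The lymphoid marker Cd79a reached 21 reads, with 3 or fewer in 34 libraries. The part of cells with these markers in the enzymes' values was not tested.

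The pathway has an early part that spends ATP and a later part that regains it. In the early part, hexokinase 2 (Hk2) traps glucose as glucose 6-phosphate, glucose-6-phosphate isomerase (Gpi1) makes fructose 6-phosphate, the liver-type and platelet-type phosphofructokinases (Pfkl and Pfkp) carry out the committed step, and aldolase A (Aldoa) and triosephosphate isomerase (Tpi1) make and interconvert the triose phosphates. In the later part, phosphoglycerate kinase 1 (Pgk1) makes ATP, phosphoglycerate mutase 1 (Pgam1) and enolase 1 (Eno1) prepare phosphoenolpyruvate, and lactate dehydrogenase A (Ldha) makes lactate. Many of these genes are textbook targets of hypoxia-inducible factor and of Myc, which bind core motifs such as ACGTG and the E-box CACGTG. Neutrophils draw most of their ATP from glycolysis, and activated macrophages are known for raising it.

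In GRCm38, with GENCODE gene limits, Hk2 lies at chr6:82725025-82774454 and Tpi1 at chr6:124810586-124814296, both on the minus strand. On chromosome 7 lie Gpi1 (chr7:34201330-34230336, minus strand), Ldha (chr7:46841475-46855627, plus strand) and Aldoa (chr7:126795234-126800751, minus strand). Pfkl lies at chr10:77986947-78010083 and Pfkp at chr13:6579768-6648777, both on the minus strand. Pgk1 (chrX:106187100-106203699), Pgam1 (chr19:41911923-41918660) and Eno1 (chr4:150236721-150248879) lie on the plus strand.

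The members move together, so the bases before their starts are shown for a kinase at the entry of the pathway, the ATP-making kinase, the mutase and the dehydrogenase, each over the 250 bases that end just before a RefSeq transcript start (GRCm38.p6), 5′ to 3′ on the gene's strand. Capitals mark ACGTG and GCGTG on either strand (CACGT and CACGC when read on the other strand), and CACGTG holds overlapping matches on both strands.
Hk2, chr6:82774455-82774704, minus strand, 2 matches: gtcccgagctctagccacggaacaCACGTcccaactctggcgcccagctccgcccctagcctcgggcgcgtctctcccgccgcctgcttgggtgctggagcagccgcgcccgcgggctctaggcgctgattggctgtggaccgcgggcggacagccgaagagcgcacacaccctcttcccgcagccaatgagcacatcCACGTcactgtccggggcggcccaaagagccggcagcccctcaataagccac
Pgk1, chrX:106186850-106187099, plus strand, 2 matches: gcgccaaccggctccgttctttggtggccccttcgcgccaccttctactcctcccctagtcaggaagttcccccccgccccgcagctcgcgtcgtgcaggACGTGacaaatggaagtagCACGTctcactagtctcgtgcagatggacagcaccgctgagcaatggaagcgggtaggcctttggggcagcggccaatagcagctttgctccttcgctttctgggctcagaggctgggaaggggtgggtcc
Pgam1, chr19:41911621-41911870, plus strand, 3 matches: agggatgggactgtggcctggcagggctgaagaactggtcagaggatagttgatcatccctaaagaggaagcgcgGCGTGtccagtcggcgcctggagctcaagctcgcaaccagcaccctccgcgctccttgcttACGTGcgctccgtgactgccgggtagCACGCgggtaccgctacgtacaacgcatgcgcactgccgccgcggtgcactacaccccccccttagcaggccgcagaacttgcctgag
Ldha, chr7:46845554-46845803, plus strand, 5 matches: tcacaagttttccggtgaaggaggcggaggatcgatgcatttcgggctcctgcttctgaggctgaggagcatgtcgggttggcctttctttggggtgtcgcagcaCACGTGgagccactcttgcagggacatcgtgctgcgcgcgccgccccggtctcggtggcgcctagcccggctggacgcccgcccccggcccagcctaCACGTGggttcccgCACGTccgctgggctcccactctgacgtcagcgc

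Over all RefSeq starts of the members, 12 of 15 such windows held at least 1 match (80%), against 12679 of 32851 windows of the same length for all genes (38.6%). At least 2 matches were found in 46.67% of the members' windows and in 16.73% of all windows. Windows of Eno1, and likewise of Aldoa, overlap each other, so some of their matches are counted more than once. Of the 10 genes, 8 had a match in at least 1 window (80%), against 41.54% of all 27025 genes with a window, and Gpi1 and Tpi1 had none. The 4 windows shown were picked among those with 2 or more matches. Both motifs contain CG, and the windows of all genes were not matched to those of the members for base composition or level of expression. A match describes letters and not a bound site, and binding of a factor was not measured in these data.

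Levels can be compared between genes only per length of transcript, here as normalized counts per kilobase of the principal transcript. In undifferentiated cells the order on this scale was Eno1 at 67738 ± 690 (SD, n = 3), Aldoa at 51206 ± 1770, Pgk1 at 41274 ± 2008 and Gpi1 at 41041 ± 1458, where Pgk1 and Gpi1 differed by less than their spread. Tpi1 (15425 ± 375), Ldha (11822) and Pgam1 (9608 ± 162.6) followed. Pfkl (3021 ± 54.4), Pfkp (2790 ± 43.1) and Hk2 (777 ± 19.1) closed the order, with the lowest transcript levels per kilobase among the members. Other hexokinases and the muscle-type phosphofructokinase were not put on this scale, so the first and the committed steps as a whole were not ranked. After 168 h of OHT in IL3, Hk2 had risen to 3204 ± 73.7 normalized counts per kilobase, close to Pfkp at 3458 ± 195.3. Within time points, the replicates of a member differed by a median coefficient of variation of 3.83% (Pgam1) to 7.27% (Pfkl).

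Every member changed with time by limma's F test in both courses, 10 of 10 in IL3 (69.7% of all 17414 genes tested) and 10 of 10 in GCSF (47.7%), which on this background says little by itself. The range of each member was larger in IL3 for 7 of the 10, as a description without a test. Pfkl ran from a normalized count of 2719 ± 601 (SD, n = 3) at IL3-OHT 4h to 21943 ± 2082 at 104h, which is 8.07-fold. Gpi1 ran from 41148 ± 2254 at 8h to 313234 ± 24726 at 136h in IL3, 7.61-fold, but in GCSF only from 50987 ± 4841 at 168h to 101401 ± 10729 at 104h, 1.99-fold. Gpi1 thus held the second largest range of the set in IL3 and the smallest in GCSF. Eno1 varied least in IL3, 2.70-fold between 62316 ± 4519 at 8h and 168379 ± 12695 at 128h.

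**Figure D1:**
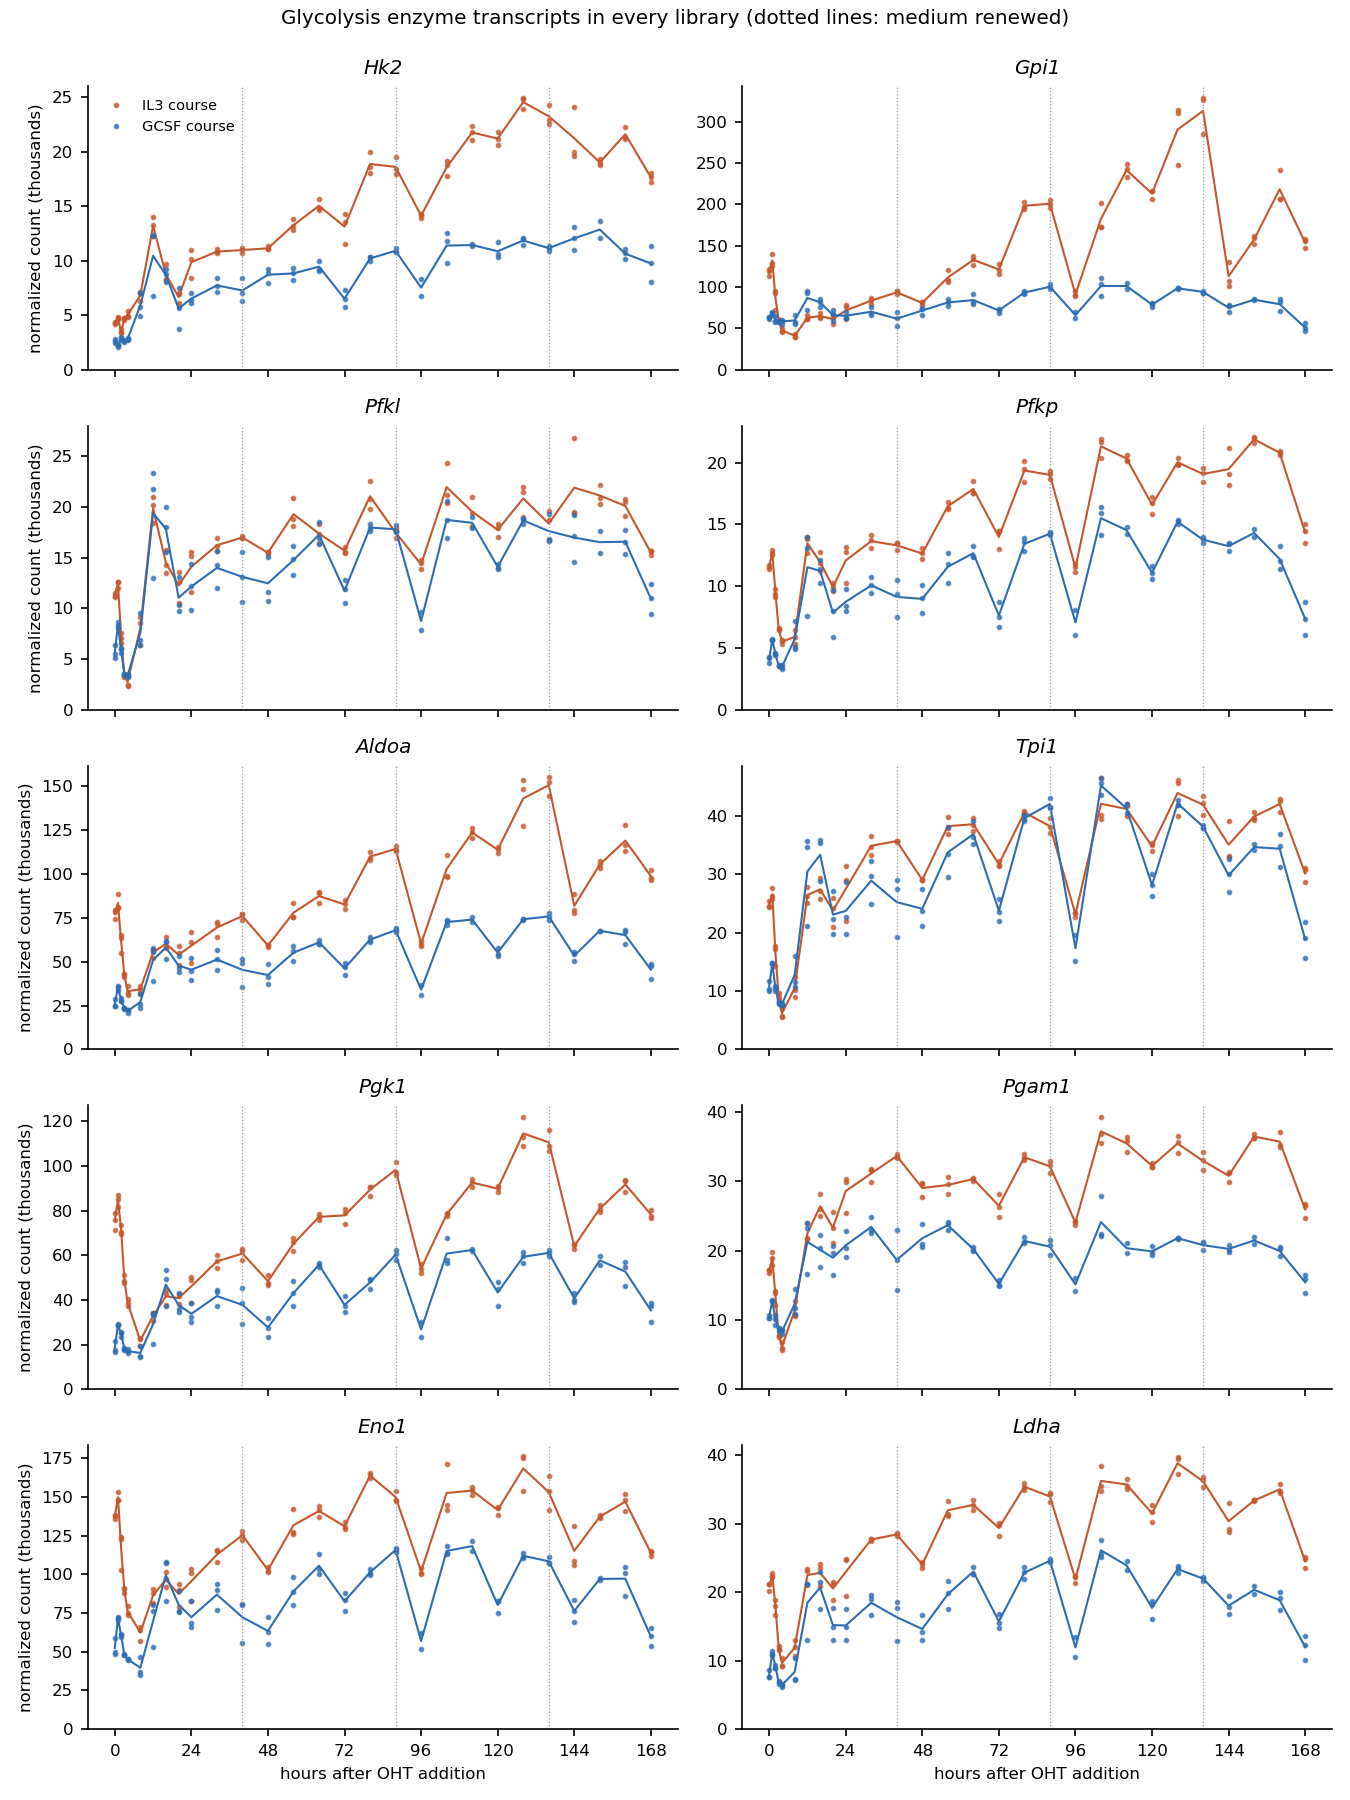
Normalized counts (vertical axes from 0, in units of 1000) of the 10 enzymes in every library against hours after OHT, with points for libraries and lines through the means of each course, IL3-OHT 96h and 144h included. Gpi1 rises to a mean of 313234 at 136h in IL3 and stays at or below a mean of 101401 in GCSF, and most members drop between 1h and 4h in IL3 and climb between 8h and 12h in both courses.

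The first comparison sets cells after the GCSF pre-treatment against undifferentiated cells, before any OHT. The study uses the undifferentiated libraries both as the cells before the 48 h in GCSF and as 0h of IL3. No other IL3 libraries without OHT were sequenced, so GCSF, washing, reseeding and time in culture cannot be told apart. All 10 enzyme transcripts were lower in GCSF 0h than in IL3 0h at an adjusted p under 0.05 and a log2 fold change beyond 0.58 (the rule for every call here), where 20.7% of all genes were called lower. The median log2 fold change of the members was -1.30, and that of all genes -0.09. Pgk1 fell most. Its normalized count was 71445, 75808 and 78724 in the undifferentiated libraries and 21392, 17367 and 16826 after GCSF. The groups lay far apart, with a 4.07-fold lower mean in GCSF (log2 fold change -2.03 ± 0.11 SE, limma adjusted p = 1.12e-34).

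The committed step showed unequal members. Pfkp had normalized counts of 11743, 11386 and 11569 in undifferentiated cells and 4184, 4231 and 3799 after GCSF, a 2.84-fold decrease (log2 fold change -1.51 ± 0.11, limma adjusted p = 1.58e-25). Pfkl had 11102, 11204 and 11493 before and 6389, 5468 and 5062 after, a decrease of 2.00-fold. Both phosphofructokinases were lower in every GCSF library than in any undifferentiated library. Aldoa, at 2.96-fold, Ldha, at 2.64-fold, and Eno1, at 2.62-fold, fell by similar factors, and Tpi1 fell 2.30-fold. Gpi1 (1.88-fold), Pgam1 (1.64-fold) and Hk2 (1.63-fold) fell least. For Hk2 the undifferentiated libraries gave 4298, 4170 and 4379 and the GCSF libraries 2834, 2641 and 2425, so that even the smallest of these differences exceeded the spread of the replicates.

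Of 16 tested genes for other glycolytic steps and isozymes, 7 were lower and 1 was higher, with Aldoc, the brain-type aldolase, at a log2 fold change of -2.63, Pgam2, the muscle-type mutase, at -1.79 and Gapdh, the dehydrogenase between Tpi1 and Pgk1, at -1.70. Among 9 transporters, Slc2a1, the glucose transporter GLUT1, stood at -3.75 and Bsg, the chaperone of lactate carriers, at -2.22, while the lactate exporter Slc16a3 stood at 1.06, and 2 of 9 were called in each direction, a share of lower calls near that of all genes. Of 14 hypoxia-inducible genes outside glycolysis, 13 were lower (median -2.499), led by Adm, Ndrg1 and P4ha1. The summed normalized count of those 14 genes was 139033 to 149154 in undifferentiated libraries and 31784 to 35576 after GCSF. Of 8 proliferation genes 7 were called, each of them higher (33.7% of all genes were called in either direction), with sums of 15212 to 16189 before and 37952 to 42351 after. Of 10 regulators of flux 1 was higher and 2 lower, of 19 genes of pyruvate entry and the citrate cycle 2 were higher and 1 lower, and of 12 genes of glycogen and gluconeogenesis 2 were higher and 6 lower. The 7 genes of the pentose phosphate pathway had log2 fold changes of -0.0036 (Pgd) to 0.51 (Tkt), 6 of them higher at an unadjusted p under 0.05 and none past the fold-change threshold. The part of oxygen, growth or cell density in the enzymes' change was not tested. In bulk RNA, fewer cells of a state and less RNA per cell cannot be told apart, here and below.

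The next comparisons follow the first hours after OHT. At 1h in IL3 the 10 enzymes had log2 fold changes of 0.10 to 0.17 and limma adjusted p of 0.205 or more. By 4h, 9 of the 10 were called lower than in undifferentiated cells, against 13.5% of all genes, and the members' median log2 fold change was -1.17. Pfkl showed the largest fall. It had a normalized count of 3411, 2322 and 2423 at 4h, against 11102, 11204 and 11493 at the start, 4.14-fold lower (log2 fold change -2.07 ± 0.12, limma adjusted p = 2.17e-30). Tpi1 fell as far, from 24350, 25475 and 24537 to 7137, 5631 and 5812, which is 4.00-fold (log2 fold change -2.01 ± 0.12). The replicates at 4h spread more than those at the start, yet no library of the 2 groups overlapped for either gene.

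Pgam1 fell 2.78-fold, Gpi1 2.47-fold, Aldoa 2.34-fold, Ldha 2.17-fold and Pfkp 2.10-fold by 4h. Pgk1 (1.94-fold) and Eno1 (1.80-fold) fell least among the called. Hk2 alone did not fall: its normalized counts were 5367, 4908 and 4851 at 4h against 4298, 4170 and 4379 at the start (log2 fold change 0.23 ± 0.11, limma adjusted p = 0.0743). Hk2 was higher in each 4h library than in any of the start, which with 3 against 3 libraries says little. The test was not passed, and the share of all genes with such a separation was not counted. By 8h in IL3, 8 members were lower (17.9% of all genes) and Hk2 was called higher at a log2 fold change of 0.67. Pgk1, Gpi1 and Eno1 went on falling to 8h. Eno1 went from a mean normalized count of 76224 at 4h to 62316 at 8h. Pgk1 and Gpi1 reached log2 fold changes of -1.80 and -1.53 at 8h. At that time Pgk1 had normalized counts of 19542, 22529 and 23116, lower than any of its libraries at 4h (37377 to 40277), while Pfkl had come back up to 6403, 8571 and 9135.

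In GCSF, starting from lower levels, only Pfkl was called lower at 4h (1 of 10, against 2.41% of all genes). Its normalized counts were 6389, 5468 and 5062 at GCSF 0h and 3304, 3219 and 3491 at 4h, 1.69-fold lower (log2 fold change -0.75 ± 0.12, limma adjusted p = 4.42e-07). Tpi1 followed with 11810, 10383 and 10069 before and 7688, 7967 and 7539 after (log2 fold change -0.47 ± 0.12, limma adjusted p = 8.67e-04), which misses the fold-change threshold. The other 8 members had log2 fold changes of -0.33 to 0.10. The difference between the courses was tested itself, as the interaction of the change from 0h to 4h with the course. It was called for 9 of 10 members (9.46% of all genes were called in this direction), in each with the smaller fall in GCSF, from 0.64 ± 0.14 for Eno1 to 1.54 ± 0.17 for Tpi1 on the log2 scale. Hk2 gave -0.14 ± 0.16.

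At 4h in IL3 the wider lists moved as follows. Of the other glycolytic genes 6 of 16 were lower, with the muscle-type phosphofructokinase Pfkm at a log2 fold change of -1.45. Slc2a1 was at -2.84, Pdk1, which shuts pyruvate out of the citrate cycle, at -2.60, and the glycogen synthase Gys1 at -3.13. Of 14 hypoxia-inducible genes 12 were lower, and their sum went from 139033 to 149154 at the start to 42653 to 49281 at 4h. In GCSF their sum was 31784 to 35576 at the start and 30278 to 32061 at 4h, with 2 higher (3.21% of all genes) and 3 lower. The proliferation genes had sums of 13731 to 14205 at IL3-OHT 4h, and their median log2 fold change was -0.08. The regulators of flux were called higher for 2 (8.63% of all genes) and lower for 4 of 10, and 5 of 12 genes of glycogen and gluconeogenesis were lower.

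**Figure D2:**
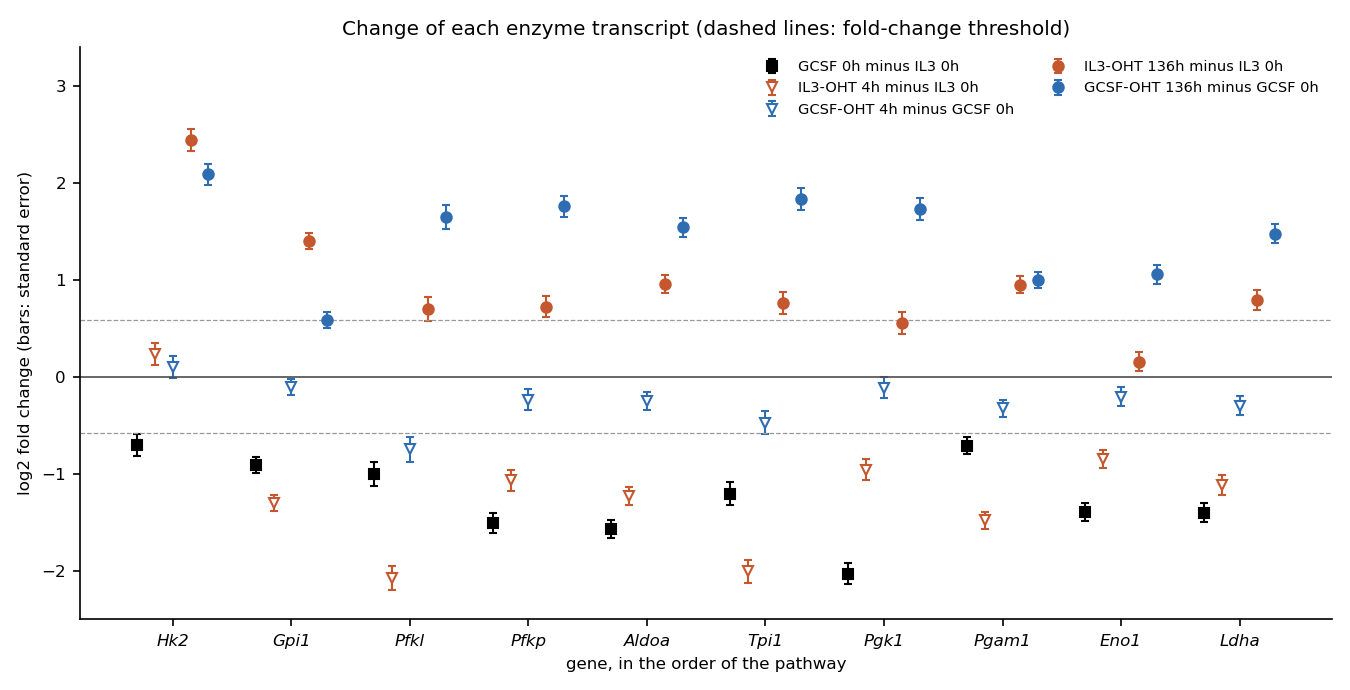
Log2 fold change of each enzyme (horizontal axis, in pathway order) in 5 comparisons, with standard errors as bars and dashed lines at the fold-change threshold of 0.58. The squares for GCSF 0h lie below the lower line for all 10 genes, the IL3-OHT 4h triangles lie below it for all but Hk2, and Hk2 has the highest IL3-OHT 136h circle at 2.44.

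Between 8h and 12h the transcripts rose in both courses. In IL3 this followed a fall of all members but Hk2. At GCSF-OHT 8h the means of all members but Gpi1, Pgk1 and Eno1 already lay above GCSF 0h, as a description without a test. In IL3, 9 of 10 members rose over this step (3.81% of all genes were called higher) and in GCSF 9 of 10 (2.25%). Tpi1 in IL3 went from 8965, 10208 and 12370 at 8h to 27905, 25138 and 26371 at 12h, 2.52-fold higher (log2 fold change 1.34 ± 0.12, limma adjusted p = 1.71e-18). Pfkl rose 2.47-fold in IL3 and 2.56-fold in GCSF, and Hk2 1.93-fold and 1.77-fold. The exceptions were Eno1 in IL3, at a log2 fold change of 0.47, and Gpi1 in GCSF, at 0.53, both of which passed the adjusted p but not the fold change. In GCSF replicate 3 at 12h stood below the others for every member. Ldha, for example, had normalized counts of 21234, 21123 and 13041 there, and Hk2 had 12240, 12340 and 6820.

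This rise left the courses in different positions against their own 0h. At IL3-OHT 12h, 5 members differed from undifferentiated cells, where 28.7% of all genes were called in either direction. Hk2 was 3.09-fold higher, at 14022, 13335 and 12294, and Pfkl 1.76-fold higher, at 20168, 18394 and 21015. Pgk1 (log2 fold change -1.20 ± 0.11), Gpi1 (-0.91 ± 0.08) and Eno1 (-0.67 ± 0.10) were still lower. The phosphofructokinases parted again, since Pfkp was at 13939, 12662 and 13778, near its start (log2 fold change 0.22 ± 0.11, limma adjusted p = 0.0773). At GCSF-OHT 12h, 8 members were higher than GCSF 0h (7.56%), and 10 without the low replicate 3, a fit added after the values were seen. Hk2 was 3.97-fold and Pfkl 3.44-fold higher, and Gpi1 (0.46 ± 0.08) and Eno1 (0.40 ± 0.10) missed the fold-change threshold. The hypoxia-inducible list was higher for 12 of 14 at GCSF-OHT 12h.

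Every member but Pfkl in GCSF, whose highest mean was that of 12h, had its highest mean at 104h or later in each course. That mean of Pfkl, 19375 ± 5604 (SD, n = 3), includes the low replicate 3. It differed from the mean of 18715 at GCSF-OHT 104h by less than this spread. At 136h, 8 members were higher than IL3 0h in IL3 (13.2% of all genes) and 10 were higher than GCSF 0h in GCSF (12.5%). Against undifferentiated cells, the GCSF-OHT 136h means were lower for Gpi1 (94261 against 118361), Pgk1 (61045 against 75326), Eno1 (108378 against 137304) and Aldoa (75774 against 77373). The means of the other members were higher, and these differences were not tested. Hk2 had the largest log2 fold change of the 10 in each course, against the 0h of that course. Its normalized counts in IL3 were 22947, 22609 and 24263 at 136h, against 4298, 4170 and 4379 at the start, 5.43-fold higher (log2 fold change 2.44 ± 0.11, limma adjusted p = 1.38e-40). In GCSF they were 10940, 11200 and 11367 against 2834, 2641 and 2425, 4.24-fold higher (log2 fold change 2.09 ± 0.11, limma adjusted p = 1.19e-34). Every GCSF library of Hk2 at 136h lay below every IL3 library of that time.

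Gpi1 rose unequally. In IL3 it rose 2.65-fold, from 120071, 121441 and 113571 to 326087, 284728 and 328886 (log2 fold change 1.40 ± 0.08), and in GCSF 1.50-fold, from 60951, 64261 and 63509 to 93508, 95898 and 93379 (0.58 ± 0.08, limma adjusted p = 1.08e-09), just past the threshold. Pgk1 was called in GCSF alone. It went from 21392, 17367 and 16826 to 62269, 59760 and 61104 in GCSF, 3.29-fold, and from 71445, 75808 and 78724 to 106499, 116143 and 109002 in IL3 (log2 fold change 0.55 ± 0.11, not past the threshold). Tpi1 rose 3.55-fold and Pfkp 3.38-fold in GCSF, against 1.69-fold and 1.65-fold in IL3. Eno1 rose 2.07-fold in GCSF, while in IL3 its counts of 153921, 141726 and 163658 at 136h were near those of the start (log2 fold change 0.15 ± 0.10, limma adjusted p = 0.168). Differences between the courses at 136h were not tested as an interaction.

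At 136h in GCSF, 9 of the 16 other glycolytic genes were higher and 1 was lower, with Aldoc at a log2 fold change of 2.99, the pyruvate kinase Pkm at 1.31 and Gapdh at 1.11. Slc2a1 stood at 3.63. Of 19 genes for pyruvate entry and the citrate cycle, 10 were lower (12.5% of all genes), led by the isocitrate dehydrogenase subunit Idh3a (-1.26), the pyruvate carrier Mpc2 (-1.07) and the fumarase Fh1 (-0.83). In IL3, 6 of 16 other glycolytic genes were higher and 4 lower (20.7% of all genes were called lower there), and 1 of 19 citrate cycle genes was lower (Idh3a, -1.003). Of 7 genes of the pentose phosphate pathway, which branches off after Hk2, 1 was higher in IL3 (Rpe, 0.96) and 1 lower in GCSF (Pgls, -0.73). The hypoxia-inducible genes were higher for 14 of 14 in GCSF (sum 138631 to 140525) and for 12 of 14 in IL3 (328127 to 336764). The proliferation genes were lower for 6 of 8 in GCSF and 8 of 8 in IL3, with sums of 26737 to 28056 and 6817 to 7415. Of the cell type markers, 4 of 5 for monocytes and macrophages and 3 of 8 for neutrophils were higher in IL3, and 5 of 5 and 6 of 8 in GCSF, against the shares of 13.2% and 12.5% given above.

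At 168h much of the rise was gone. This last time point is a multiple of 24 h, like those at which the enzymes lay below their neighbours (below). It has no later neighbour, so a lasting decrease and such a drop cannot be told apart. In IL3, Hk2 (17255, 18067 and 17661, log2 fold change 2.04 ± 0.11) and Pgam1 (24685, 26730 and 26402, log2 fold change 0.60 ± 0.09) were still called higher than the start, 2 of 10 (10.2% of all genes), against 8 of 10 at 160h (12.1%). Without replicate 3, 1 member was called at 168h. In GCSF, 7 members were higher at 168h than at GCSF 0h (12.1%). They were Hk2 (3.71-fold), Pfkl (1.94-fold), Pgk1 (1.91-fold), Pfkp (1.81-fold), Tpi1 (1.76-fold), Aldoa (1.74-fold) and Ldha (1.52-fold). Against undifferentiated cells, the GCSF-OHT 168h means of all members but Hk2 were lower, as a description without a test. From 160h to 168h in GCSF, 6 members fell (1.50% of all genes), with Tpi1 going from 36981, 31369 and 34912 to 21856, 19111 and 15703. The change by 168h differed between the courses for 2 members (25.7% of all genes were called for this interaction in either direction). Pgk1 had risen more in GCSF, by 0.87 ± 0.15 on the log2 scale. For Gpi1 the difference was -0.68 ± 0.12. Its mean in GCSF went down, from 62907 at 0h to 50987 at 168h, while its mean in IL3 went up. At 160h 6 members were called for the same interaction (26.3%), all of them with the larger rise in GCSF, and Gpi1, at -0.55 ± 0.12, missed the threshold.

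Set against each other at the same times, the courses differed mostly in 1 direction. Averaged over the 25 shared time points, 5 members were lower in GCSF-OHT than in IL3-OHT (15.1% of all genes). They were Pgk1 (log2 difference -0.75 ± 0.02), Hk2 (-0.68 ± 0.02), Aldoa (-0.68 ± 0.02), Ldha (-0.67 ± 0.02) and Gpi1 (-0.63 ± 0.02), and the median of the 10 was -0.60. Eno1 lay at the threshold, at -0.58, and Tpi1 (-0.16) and Pfkl (-0.19) differed least. At 168h, 9 of 10 were lower in GCSF (16.0%), all but Pfkl. Gpi1 was the most unequal, with 158715, 147017 and 155293 in IL3 and 56154, 50251 and 46556 in GCSF, 3.01-fold apart.

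Over the 250 comparisons of a member at a shared time point, GCSF was below IL3 in 229 and above in 21. It was called lower in 46.4% of the 250 (12.7% of all such comparisons over all genes). The median difference of the members was -1.04 at 1h (8 called), lay between -0.18 and 0.01 from 12h to 20h, and was -0.96 at 168h (9 called). Ldha and Hk2 were called lower in GCSF at 17 time points each, and Tpi1 at 3, while Pfkl did not pass the threshold at any of the 25. The averaged hypoxia-inducible genes were lower in GCSF for 9 of 14, and the proliferation genes were higher for 8 of 8 (9.34% of all genes).

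**Figure D3:**
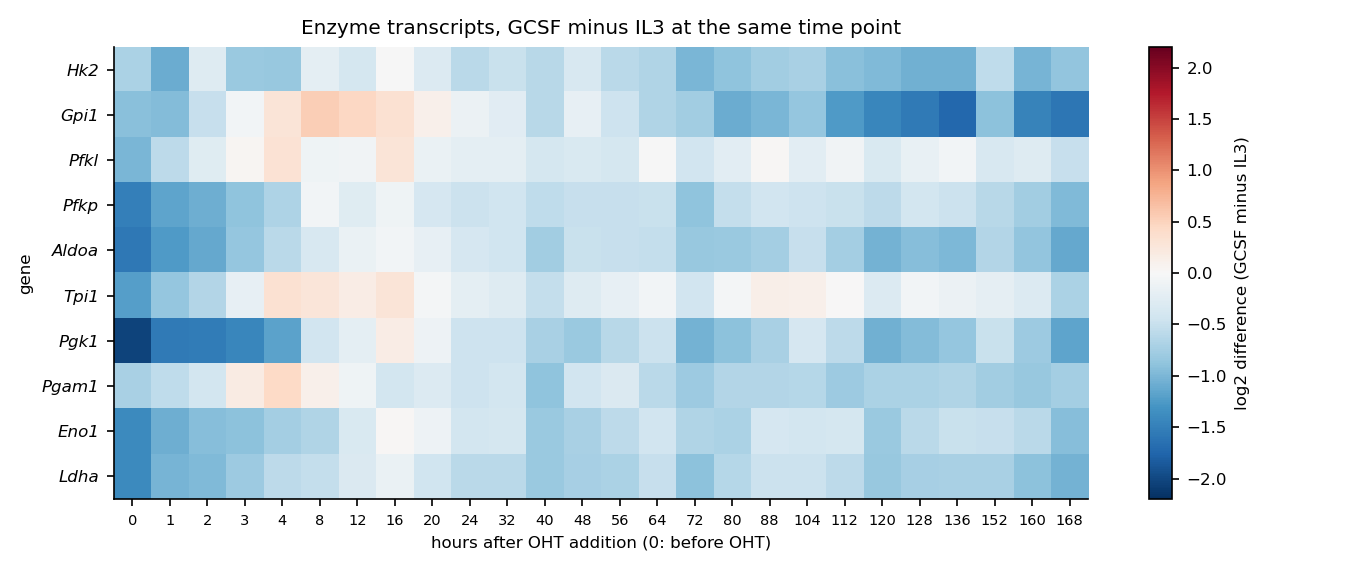
Log2 difference, GCSF minus IL3, of each enzyme (rows, in pathway order) at 0h and at the 25 shared time points (columns, hours after OHT), blue where GCSF is lower and red where it is higher. Pgk1 is darkest at 0h, at -2.03, Gpi1 is darkest at 136h, at -1.73, the columns from 12h to 20h are pale, and the row of Pfkl lies between -0.57 and 0.32 after 0h.

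Against their own 0h, the members differed in how long they stayed changed. In GCSF, where 8.39% of the comparisons over all genes and time points were called higher, Hk2 was higher at 23 of 27 time points, Pfkl, Pfkp, Tpi1 and Ldha at 22, Aldoa and Pgk1 at 21, Pgam1 at 19, Eno1 at 15 and Gpi1 at 5. In IL3, 26.7% of such comparisons were called in either direction. Hk2 was called there at 21 of 25 time points, higher at each of them, and Pgam1 at 21, of which 18 were higher. Pfkl was called at 16 (13 higher) and Gpi1 at 15 (8 higher), followed by Tpi1 and Ldha at 14 and Pfkp at 12. Pgk1 was called at 9, lower at 8 of them, and Aldoa at 7, higher at 4 of them. Eno1 was called at 5 and was lower at each of these. These comparisons share the libraries of 0h, so a shift of those libraries moves all time points together.

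Changes from each time point to the next were tested too. In IL3, 23 of 250 member steps were called, 9.20% against 3.65% over all genes, 13 upward and 10 downward. In GCSF, 51 of 270 were called, 18.9% against 1.81%, 31 upward and 20 downward, at 14 of 27 steps. Such moves in GCSF included a drop and a return around 96h. From 88h to 96h, 8 members fell (4.07%), and from 96h to 104h all 10 rose (2.92%). Tpi1 had normalized counts of 43180, 41450 and 41656 at 88h, of 19572 and 15143 at 96h and of 43552, 46488 and 45747 at 104h. Pgk1 had 62390, 57820 and 60585, then 30034 and 23513, then 57717, 56636 and 67844. Both genes were lower in each library of 96h than in any library on either side. GCSF-OHT 96h has 2 libraries, and both were low.

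Each time point from 32h to 160h was therefore set against the mean of the time points 8 h before and after, which share libraries with the neighbouring comparisons. At GCSF-OHT 96h, 8 members were lower than their neighbours (3.53% of all genes), with a median log2 difference of -1.06. At IL3-OHT 96h, which the authors excluded, 6 were lower (8.17%). Gpi1 had 94936, 90122 and 88714 there, between 201092, 195972 and 205480 at 88h and 202404, 172205 and 173230 at 104h (log2 difference -1.07 ± 0.07, limma adjusted p = 2.47e-26). At IL3-OHT 144h, also excluded, Gpi1 (-0.98 ± 0.07) and Aldoa (-0.62 ± 0.08) were lower (6.76%). At GCSF-OHT 72h, 4 were lower (1.19%), namely Pfkp (-0.78), Tpi1 (-0.69), Hk2 (-0.60) and Pfkl (-0.59), and 2 by edgeR.

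Within that window the drops fell at multiples of 24 h, a pattern seen only after the values were known. The last time point, 168h, is also such a multiple but has no later neighbour and was not compared. At 48h, 72h, 96h, 120h and 144h the members' median lay below the neighbours in both courses, at -0.69 to -0.21 in IL3 and -1.06 to -0.22 in GCSF. At the 12 other time points it lay below 0 times in IL3 and 1 time in GCSF (40h, -0.06). Of the single member values, 48 of 50 in IL3 and 46 of 50 in GCSF were negative at those multiples, against 8 of 120 and 17 of 120 elsewhere. A low time point raises the values beside it by construction, so these counts are not independent. At 24h, compared in the same way after the others, the members' median was -0.11 in IL3, with Hk2 above 0 and 9 members below, and -0.35 in GCSF, with 10 below. At 16h it was 0.44 and 0.81. The hypoxia-inducible genes had a median of -0.35 at 24h in GCSF and of -8e-04 in IL3. Outside 72h in GCSF and 96h and 144h as given, the drops did not pass the fold-change threshold. In limma, edgeR and DESeq2, 0 members were called at 48h in IL3 (0.843% of all genes), at 72h (0.912%) and at 120h (0.797%) in IL3, and at 48h (0.189%), 120h (1.14%) and 144h (1.07%) in GCSF. At an unadjusted p under 0.05, 8, 9 and 7 members were lower at those times in IL3 and 6, 8 and 6 in GCSF.

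The 14 hypoxia-inducible genes had medians below their neighbours at the same 5 time points in both courses, and elsewhere at 0 of 12 in IL3 and 1 of 12 in GCSF. Their sum at GCSF-OHT 96h was 53169 and 73896, against 122795 to 125812 at 88h and 134616 to 141857 at 104h. The medium was renewed 8 h before 48h, 96h and 144h but not before 72h and 120h. The libraries of 120h carry another series of library names in both courses. The part of the medium, the plate or the hour of harvest in these drops was not tested.

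**Figure D4:**
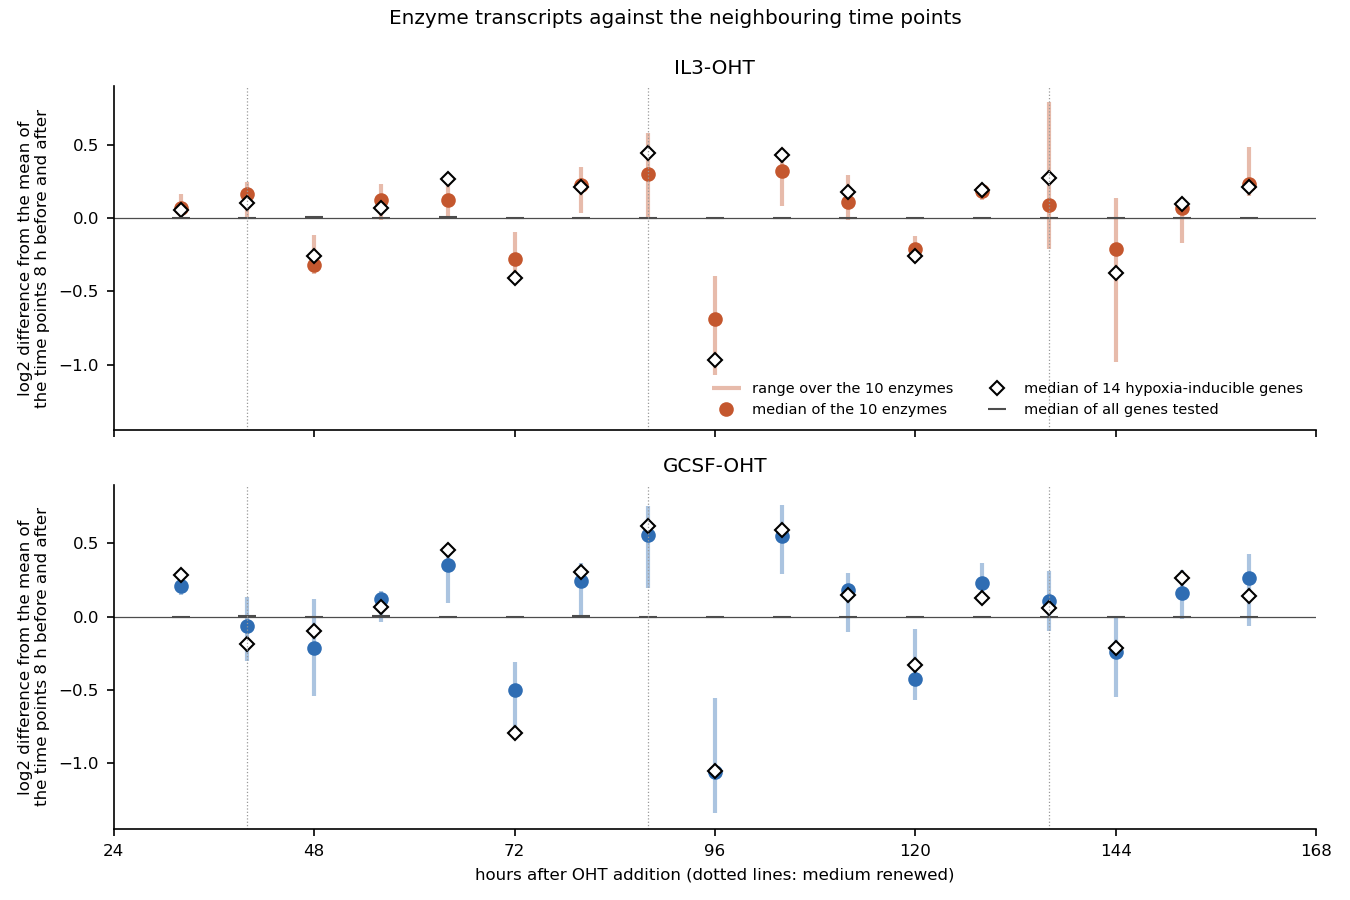
Log2 difference of each time point from the mean of the time points 8 h before and after, against hours after OHT, for IL3-OHT (top) and GCSF-OHT (bottom), with circles for the median of the 10 enzymes, vertical bars for their range, diamonds for the median of 14 hypoxia-inducible genes and dashes for all genes tested. Circles and diamonds lie below 0 at 48h, 72h, 96h, 120h and 144h in both panels, lowest at GCSF-OHT 96h at -1.06, while the dashes stay between -0.003 and 0.01.

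The 10 transcripts ran together over the 54 group means left after the excluded time points, as a description over points that share line, plates and scaling. Pearson's r between pairs of members ran from 0.603 to 0.977 (median 0.848, 45 pairs), from 0.489 to 0.981 within IL3 and from 0.668 to 0.993 within GCSF. The loosest pair in IL3 was Pfkl with Pgk1, a gene that recovered early and a gene that, like Gpi1 and Eno1, went on falling to 8h. Ldha (r = 0.986) and Pfkp (0.984) were closest to the mean profile of the 10, and Gpi1 (0.854) was farthest. Each member is itself part of that profile, which raises its r beside that of genes outside the set. Outside the set, the 10 genes most like that profile were Selenbp1 (0.985), Me1, the malic enzyme (0.974), Vegfa, the vascular growth factor (0.972), Parp16 (0.970), Egln1, the prolyl hydroxylase that senses oxygen (0.967), Lancl1 (0.963), Adm2 (0.960), Ostf1 (0.955), Slc30a9 (0.954) and Mboat2 (0.953).

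Reads of near-identical copies limit a few values. Transcripts of Pgam1 share sequence stretches of 31 bases with the processed copy Pgam1-ps2, whose listed level was 16.24% of that of Pgam1, and those of Pfkp with the neighbouring gene Pitrm1, at 9.57%. The genes that share stretches with Gpi1 have no values in the table used here. For the other 7 members, the listed genes with shared stretches summed to at most 0.21% of the member's level. Aldoa has 2 identifiers in the annotation, and the position given above is that of the longer.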

How the data were processed

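PolyA RNA of 165 PUER libraries was sequenced by the authors, who quantified the reads with Salmon on GRCm38/mm10 and scaled gene counts with DESeq2 (versions not given in the sources used here). The deposited signal is the normalized count (counts over size factors, median of ratios). Dividing by the value of 1 read (0.652 to 1.84) gave whole reads for 100% of nonzero values, within 0.01 read. Totals were 14600246 to 33147945 reads, and 3 reads equal a normalized count of 1.96 to 5.51.

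Genes that reached a normalized count of 5 in any library were tested with limma 3.58.1 (R 4.3.3; trend = TRUE) on log2(normalized count + 1), 17414 genes in 159 libraries, or 17439 in 165 with IL3-OHT 96h and 144h, with 1 mean per group. Fold changes in log2 are on that scale, and folds are ratios of mean normalized counts. P-values were adjusted by Benjamini-Hochberg over all genes, and a call needed this p under 0.05 with a log2 change beyond 0.58 either way. Code was tested on simulated data. Alternatives were edgeR 4.0.16 and DESeq2 1.42.0 on recovered reads, other scalings, pseudocounts and filters, left-out replicates and a replicate block.

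The members and gene lists were chosen with earlier results of these data known. All members were named, and of each list at most the 3 called genes with the largest log2 fold change. The comparisons at 4h, 136h, 72h and 120h, and those of 16h and 24h with their neighbours, were added after values were seen. Sequences are from RefSeq.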

Additional observations from a re-analysis of the deposited data

Results flagged for a closer look

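The change from 0h to 4h of OHT differed between the courses by limma's interaction test for 9 of the 10 enzymes, each with a smaller fall in GCSF than in IL3. Of all genes, 9.46% were called in this direction. The comparison at 4h was added after values were seen. As the change in GCSF minus the change in IL3, on the log2 scale, the difference was 1.5356 for Tpi1 (adjusted p = 5.25e-14), 1.3221 for Pfkl, 1.1989 for Gpi1 and 1.1524 for Pgam1. It was 0.9748 for Aldoa, 0.8457 for Pgk1, 0.8335 for Pfkp, 0.8193 for Ldha and 0.6444 for Eno1 (adjusted p = 5.26e-05). The levels in GCSF were already lower before OHT, and the dose was 100 nM against 200 nM, so cytokine, dose and starting level cannot be told apart.

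By 168h the change differed for 2 of 10 members, where 25.7% of all genes were called for this interaction in either direction. It differed for Gpi1, at -0.6836 (limma adjusted p = 4.22e-07), with counts below GCSF 0h in GCSF and above IL3 0h in IL3. It differed for Pgk1, at 0.8741 (limma adjusted p = 7.49e-07), which had risen more in GCSF. At 160h Gpi1, at -0.55, missed the threshold and Pgk1 was 1 of 6 members called.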

How the results depend on the processing

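The counts of members called were within 1.5 times the main count under the alternatives run for the GCSF pre-treatment (10 under each), for 4h in IL3 (9), in GCSF (1) and for their interaction (9), for 12h in IL3 (5) and GCSF (7 to 10), for 136h in IL3 (6 to 9) and GCSF (9 to 10), and for 168h in GCSF (6 to 9). At IL3-OHT 168h, where 2 members were called, upper-quartile scaling gave 1, leaving out a replicate gave 1 to 2, and 160h in place of 168h gave 8. The interaction gave 6 at 160h against 2 at 168h, and 2 to 3 with a replicate left out. The GCSF calls at 72h and 120h against their neighbours fell from 4 to 2 with edgeR. The cause was not tested.

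Of 2800 values of single members under 14 settings, 2744 kept direction and call, 26 gained and 21 lost the call, and 9 changed sign, none of them called. Against the neighbours at GCSF-OHT 144h, Hk2 gave -0.0181 with upper-quartile scaling and -0.0127 with edgeR. With a replicate left out in turn, Hk2 there ran from -0.0634 to 0.0721 and Pfkl from -0.1226 to 0.0719, Hk2 at IL3-OHT 144h from -0.0657 to 0.0533 and Gpi1 at GCSF-OHT 48h from -0.0001 to 0.0476. Pgk1 at GCSF-OHT 4h against 0h ran from -0.2103 to 0.0314 and Pgam1 for the interaction at 168h from -0.1409 to 0.0781. Upper-quartile scaling moved the median of all genes at IL3-OHT 136h from -0.063 to -0.204.

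Replicate numbers are shared across groups, but deviations of same-numbered libraries correlated at -0.18 to 0.153, so they were not taken as pairs. With the replicate block, the members called over shared time points numbered 6 against 5, and no count of calls left the range of 1.5 times.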
